A study of Mus musculus with 18 samples.

Results

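Fat cells take fatty acids from circulating triglyceride through lipoprotein lipase and its partners, and 10 genes of this system were followed in subcutaneous white fat (sWAT) and brown fat (BAT). They were picked by name, 10 of the 55487 genes counted in every library: *Lpl*, *Lmf1*, *Gpihbp1*, *Angptl4*, *Angptl8*, *Vldlr*, *Cd36*, *Slc27a1*, *Slc27a4* and *Fabp4*. The mice were males on chow, fasted for 4 h. Csn8AKO mice lack *Csn8*, a subunit of the COP9 signalosome that removes Nedd8 from cullin ubiquitin ligases, in adipocytes: Cre under the adiponectin promoter deletes exons 4 to 6 of floxed *Csn8*. Ctrl mice were their floxed *Csn8*f/f littermates. The sWAT libraries came from 12-week-old animals (4 Ctrl and 4 Csn8AKO) and the BAT libraries from 4-week-old animals (5 Ctrl and 5 Csn8AKO), so depot and age cannot be told apart.

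Triglyceride travels in lipoprotein particles too large to leave the capillaries. *Lpl* encodes the lipase that cuts it into fatty acids: adipocytes make the enzyme, a chaperone in the endoplasmic reticulum (*Lmf1*) folds it, and an endothelial protein (*Gpihbp1*) carries it to the capillary wall, while the secreted proteins of *Angptl4* and *Angptl8* restrain or tune it. The freed fatty acids enter fat cells with the help of *Cd36* and the transport proteins of *Slc27a1* and *Slc27a4*, are carried inside by *Fabp4*, and the receptor of *Vldlr* holds triglyceride-rich particles near the lipase.

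Between 15835721 and 23109603 reads were counted on genes in each sWAT library, and between 26658593 and 66719937 in each BAT library. Levels are given in CPM, counted reads scaled to a common library size with TMM factors over all 18 libraries, always in the order of the replicate numbers. *Cops8*, the mouse symbol of *Csn8*, was counted over the whole gene, undeleted exons included. In sWAT it stood at 31.9, 35.7, 33.7 and 34.2 CPM in the Ctrl libraries and 32.4, 27.0, 29.8 and 34.9 CPM in the Csn8AKO libraries. The sWAT groups overlapped, with a log2 fold change of -0.12 (SE 0.11, adjusted p = 0.623) in edgeR. In BAT *Cops8* stood at 38.1, 40.3, 41.5, 38.3 and 46.0 CPM in the Ctrl libraries and 28.4, 30.6, 35.5, 32.2 and 37.4 CPM in the Csn8AKO libraries. Every Csn8AKO library of BAT lay under every Ctrl library, and the gene fell by 0.30 on the log2 scale (SE 0.089, adjusted p = 0.0211). That call was lost without BAT Ctrl replicate 5 (adjusted p = 0.0525), Csn8AKO replicate 1 (0.0570) or Csn8AKO replicate 4 (0.0579), and when libraries were scaled by size alone (0.388).

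The tissue labels matched the defining markers. *Ucp1*, the uncoupling protein of brown fat, ran from 1636 to 4582 CPM in BAT Ctrl and from 0.297 to 6.81 CPM in sWAT Ctrl, and all 10 brown adipocyte markers were called higher in BAT. The 11 adipocyte markers summed to 16957 to 22948 CPM in sWAT Ctrl and 12609 to 16977 CPM in BAT Ctrl. Ribosomal RNA genes took 2.38, 18.2, 19.8 and 1.80% of the reads in the sWAT Ctrl libraries and 3.96, 4.83, 31.8 and 47.8% in the sWAT Csn8AKO libraries. Their share in BAT was 10.1, 3.70, 0.863, 2.01 and 0.962% in Ctrl and 2.42, 15.1, 4.10, 1.06 and 1.37% in Csn8AKO libraries.

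Per kilobase of exon, the fatty acid carrier led in both depots. In sWAT Ctrl the mean level was 1119 CPM per kilobase for *Fabp4*, 521 for *Lpl* and 424 for *Cd36*. These 3 genes stood far above the other 7, of which *Slc27a1* (97.1 CPM per kilobase) and *Angptl4* (68.0) were next. *Gpihbp1* (18.2), *Vldlr* (12.1), *Slc27a4* (8.66), *Angptl8* (8.15) and *Lmf1* (1.83) followed. Ranges of neighbours in this order overlapped for *Lpl* and *Cd36* and along the run from *Gpihbp1* to *Angptl8*. In BAT Ctrl the first 5 places held the same genes in the same order, from 993 CPM per kilobase for *Fabp4* to 49.2 for *Angptl4*. *Angptl8* came next at 47.8, then *Gpihbp1* (34.2), *Vldlr* (26.1), *Slc27a4* (13.2) and *Lmf1* (5.11). In BAT the ranges of neighbours overlapped for *Lpl* and *Cd36* and along the run from *Slc27a1* to *Vldlr*. Divided by the longest coding transcript instead, *Lmf1* moved from the last place to place 8 in both depots, and in BAT *Gpihbp1* moved ahead of *Angptl4*.

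**Figure D1:**
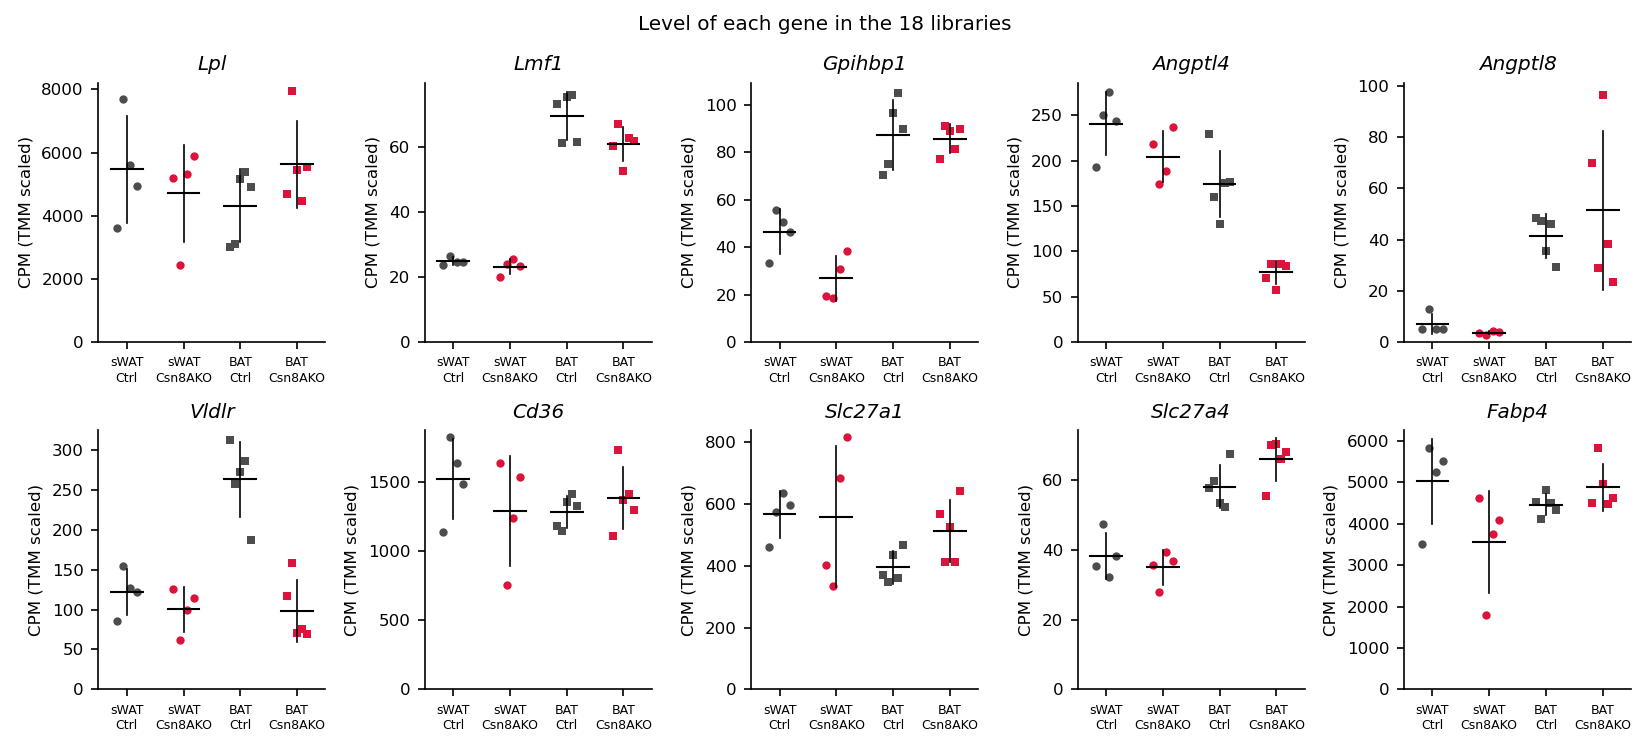
CPM of each of the 10 genes (linear axis from 0) in the 18 libraries, with grey points for Ctrl and red points for Csn8AKO, circles for sWAT and squares for BAT, a bar at the mean and a line of 1 SD either side. The 5 Csn8AKO libraries of BAT sit under all 5 Ctrl libraries for *Angptl4* and *Vldlr*, while the points of *Lpl* and *Cd36* intermingle in both depots.

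The first comparison asks how the uptake genes differ between the depots of Ctrl mice. In BAT, 5 of the 10 genes were higher and 2 were lower than in sWAT (edgeR, adjusted p under 0.05), beside 52.7% of all genes called, 25.7% higher and 27.0% lower. The median log2 difference was 0.17 over the 10 genes and 0.0063 over all 22381 genes tested. Ranges of the groups did not overlap for 5 of the 10 genes, beside 45.7% of all genes.

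*Angptl8*, a small secreted partner of the ANGPTL inhibitors, stood at 5.18, 13.0, 4.87 and 5.17 CPM in sWAT Ctrl and 48.3, 47.4, 35.6, 46.1 and 29.4 CPM in BAT Ctrl. Each BAT library lay above each sWAT library, and the log2 difference was 2.50 (SE 0.33, adjusted p = 0.000131). *Lmf1*, the chaperone that the lipase needs to fold, stood at 23.7, 26.4, 24.7 and 24.7 CPM in sWAT Ctrl and 73.2, 61.2, 75.2, 75.9 and 61.4 CPM in BAT Ctrl. The groups were far apart, with a log2 difference of 1.43 (SE 0.10, adjusted p = 6.28e-08). *Vldlr* in BAT Ctrl was higher by 1.05 (SE 0.18, adjusted p = 0.000270) on the log2 scale, the endothelial carrier *Gpihbp1* by 0.86 (SE 0.16, adjusted p = 0.000608) and the transporter *Slc27a4* by 0.55 (SE 0.12, adjusted p = 0.00159), all 3 without overlap. Lower in BAT were *Slc27a1*, with a log2 difference of -0.57 (SE 0.13, adjusted p = 0.00270), and *Angptl4*, with -0.52 (SE 0.15, adjusted p = 0.0116). Their libraries overlapped between depots. The 3 most abundant genes were not called: the log2 difference was -0.39 (95% interval -0.92 to 0.14, adjusted p = 0.202) for *Lpl*, -0.29 (95% interval -0.61 to 0.029, adjusted p = 0.116) for *Cd36* and -0.22 (95% interval -0.58 to 0.13, adjusted p = 0.275) for *Fabp4*. Scaling by library size alone brought all 3 under the threshold, limma voom brought *Cd36* and *Fabp4*, and so did leaving out sWAT Ctrl replicate 1. Library size alone also moved the median of all genes by -0.19. Relative to that shift the differences were -0.33 for *Lpl*, -0.26 for *Cd36* and -0.20 for *Fabp4*. Without sWAT Ctrl replicate 2 the differences were -0.17 for *Lpl*, -0.18 for *Cd36* and -0.13 for *Fabp4*.

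The 11 endothelial markers, summed per library, stood at 716, 872, 851 and 851 CPM in sWAT Ctrl and 1152, 1265, 1495, 1565 and 1508 CPM in BAT Ctrl. Of the 11, 8 were called higher in BAT and 1 lower, with *Ptprb* the most abundant and none at 0 in every library of a group. *Gpihbp1*, which endothelial cells make, took 4.65 to 6.40 reads per 100 reads of these markers in sWAT Ctrl and 5.92 to 6.71 in BAT Ctrl, ranges that overlapped. In whole tissue, fewer cells of a type and less RNA per cell cannot be told apart, and the part of endothelial content in the depot difference was not tested. Other cell types differed between the depots too. Macrophage markers summed to 1055 to 1463 CPM in sWAT Ctrl and 100.2 to 147 CPM in BAT Ctrl, with all 10 lower in BAT (median log2 difference -3.22). Fibroblast markers summed to 9327 to 11077 and 1066 to 1849.6 CPM, with all 7 lower (-2.86), and muscle markers to 188 to 3204 and 4.97 to 16.6 CPM, with 9 of 10 lower (-9.18). B and T cell markers had 8 of 9 lower (-4.24), adipocyte markers 7 of 11 lower and 2 higher (-0.72), and all 10 brown adipocyte markers were higher (5.62). These counts are from edgeR. DESeq2 called 1 of the B and T cell markers and limma voom 5. Of the muscle markers DESeq2 called 9 and limma voom 5. Over all genes 52.7% were called in edgeR. The part of these cell types in the depot difference of the 10 genes was not tested either.

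The next comparison asks what loss of *Csn8* in adipocytes did to the uptake genes of sWAT at 12 weeks. Of the 10 genes, 0 were called in edgeR, beside 5.31% of the 18843 genes tested (2.30% higher and 3.00% lower). The count of 1000 genes called over all genes was 1946 in DESeq2, 2155 in limma voom and 2463 in a fit of all 4 groups. It was 434 with library size alone (106 higher and 328 lower), 299 with a replicate block, and 326 to 1477 with single libraries left out. At an unadjusted p under 0.05 there were 2 of the 10 genes (*Gpihbp1* and *Angptl8*), and DESeq2 and limma voom each called 1 (*Gpihbp1*). All 10 log2 fold changes were negative, with a median of -0.23, beside 0.032 over all genes tested; the sign of *Slc27a1* turned in limma voom, without ribosomal RNA genes and without Ctrl replicate 3, Ctrl replicate 4, Csn8AKO replicate 1 or Csn8AKO replicate 2, and that of *Slc27a4* in limma voom. Ranges did not overlap for 1 gene of 10, beside 13.6% of all genes.

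*Lpl* (chromosome 8, 68880491 to 68907448 on GRCm38) stood at 3617, 7699, 5603 and 4934 CPM in the Ctrl libraries and 5188, 2439.8, 5310.5 and 5897 CPM in the Csn8AKO libraries. The groups overlapped over most of their range, and the lowest library was Csn8AKO replicate 2. The log2 fold change was -0.21 (95% interval -0.93 to 0.51, adjusted p = 0.782), and it was -0.0004 without Csn8AKO replicate 2, -0.016 without Ctrl replicate 2, -0.35 without Ctrl replicate 1 and -0.34 without Csn8AKO replicate 4. *Lmf1* ran from 23.7 to 26.4 CPM in Ctrl and from 19.9 to 25.5 CPM in Csn8AKO libraries, with a log2 fold change of -0.092 (95% interval -0.37 to 0.19, adjusted p = 0.741) that was -0.018 without Csn8AKO replicate 1 and -0.15 without Csn8AKO replicate 3.

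*Gpihbp1* (chromosome 15, 75596628 to 75599481), the protein that ferries the lipase across the endothelium, stood at 33.3, 55.8, 50.8 and 46.4 CPM in the Ctrl libraries and 19.4, 18.4, 30.9 and 38.3 CPM in the Csn8AKO libraries. Csn8AKO replicates 1, 2 and 3 lay under all Ctrl libraries, and replicate 4 lay above Ctrl replicate 1 alone. All 4 were under the Ctrl mean. The log2 fold change was -0.79 (95% interval -1.33 to -0.25, adjusted p = 0.0968), past the threshold neither in edgeR nor in 12 of 16 alternatives. It passed in DESeq2 (adjusted p = 0.0402), in limma voom (0.0405), in a fit of all 4 groups (0.0150) and without Csn8AKO replicate 4 (0.0369), and the adjusted p over the 16 alternatives ran from 0.0150 to 0.243.

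The 11 endothelial markers summed to 515, 632, 682 and 857 CPM in the sWAT Csn8AKO libraries, against 716 to 872 CPM in Ctrl. None of the 11 was called in edgeR (1 at an unadjusted p under 0.05, 1 in DESeq2, 0 in limma voom), and their median log2 fold change was -0.22. Per 100 reads of these markers, *Gpihbp1* took 4.65, 6.40, 5.97 and 5.46 reads in Ctrl and 3.78, 2.91, 4.53 and 4.48 reads in Csn8AKO libraries. The ratio was lower in each Csn8AKO library than in each Ctrl library. The part of endothelial content in the level of *Gpihbp1* was not tested.

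The secreted regulators came next. *Angptl4*, whose protein inactivates the lipase, stood at 193, 250.4, 276 and 244 CPM in the Ctrl libraries and 218, 174, 189 and 237 CPM in the Csn8AKO libraries. All 4 Csn8AKO libraries lay under the Ctrl mean, yet the ranges overlapped, and the log2 fold change was -0.22 (95% interval -0.57 to 0.12, adjusted p = 0.478). *Angptl8* stood at 5.18, 13.0, 4.87 and 5.17 CPM in the Ctrl libraries and 3.63, 2.64, 4.16 and 3.76 CPM in the Csn8AKO libraries. The groups did not overlap, and Ctrl replicate 2 was far above the other Ctrl libraries. Its log2 fold change was -0.98 (95% interval -1.72 to -0.24, adjusted p = 0.127), and without Ctrl replicate 2 it was -0.53 (adjusted p = 0.314). *Angptl8* lies within *Dock6* on the opposite strand and shares no exon base with it. *Vldlr* stood at 85.0, 154, 127 and 122 CPM in the Ctrl libraries and 126, 61.7, 99.3 and 114 CPM in the Csn8AKO libraries. The groups overlapped, and the log2 fold change was -0.28 (95% interval -0.77 to 0.22, adjusted p = 0.552), or -0.11 without Csn8AKO replicate 2 and -0.16 without Ctrl replicate 2.

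The genes of entry into the fat cell were not called in sWAT. *Cd36*, a membrane protein that binds fatty acids, stood at 1139, 1826, 1639 and 1491 CPM in the Ctrl libraries and 1641, 753, 1244 and 1541 CPM in the Csn8AKO libraries. Csn8AKO replicate 2 was the lowest of the 8 libraries, and the other 3 lay inside the Ctrl range. The log2 fold change of *Cd36* was -0.23 (95% interval -0.80 to 0.35, adjusted p = 0.683), and it was -0.051 without Csn8AKO replicate 2, -0.15 without Ctrl replicate 2 and -0.35 without Csn8AKO replicate 1. *Fabp4*, the main cytosolic fatty acid carrier of adipocytes, stood at 3522, 5818, 5249.9 and 5503 CPM in the Ctrl libraries and 4614, 1804, 3744 and 4099.5 CPM in the Csn8AKO libraries. All 4 Csn8AKO libraries were under the Ctrl mean, with replicate 2 again lowest and 3 of 4 above Ctrl replicate 1. For *Fabp4* the log2 fold change was -0.49 (95% interval -1.17 to 0.19, adjusted p = 0.419), or -0.28 without Csn8AKO replicate 2. *Slc27a1*, a fatty acid transport protein with acyl-CoA synthetase activity, had Csn8AKO libraries on both sides of the Ctrl range (334 to 816 CPM against 460.3 to 637 CPM), and *Slc27a4* ran from 28.0 to 39.4 CPM against 32.1 to 47.4 CPM. Their adjusted p values were 0.987 and 0.706.

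Other adipocyte genes moved in the same libraries. The 11 adipocyte markers summed to 16957, 20518, 22041 and 22948 CPM in sWAT Ctrl and 9068, 4725, 10032 and 11692 CPM in Csn8AKO libraries. Of the 11, 5 fell (*Pnpla2*, *Pck1*, *Cfd*, *Cidec* and *Lipe*, named, like the markers listed after other counts, once their values were seen) and 0 rose, beside 5.31% of all genes called (7 were called in DESeq2 and 8 in limma voom), with a median log2 fold change of -1.06. *Cfd*, the most abundant, averaged 8408 ± 1296 CPM (SD, n = 4) in Ctrl and 3050.4 ± 1235 CPM (n = 4) in Csn8AKO libraries, and no marker was at 0. The lowest sum was that of Csn8AKO replicate 2, the library lowest in *Lpl*, *Cd36*, *Fabp4* and *Vldlr*. *Lpl* took 21.3, 37.5, 25.4 and 21.5 reads per 100 reads of the adipocyte markers in Ctrl and 57.2, 51.6, 52.9 and 50.4 in Csn8AKO libraries. The ratio was higher in each Csn8AKO library than in each Ctrl library, against a marker sum led by *Cfd*, which fell. Against the adipocyte hormone *Adipoq* alone, *Lpl* took 330.3 to 498 reads per 100 in Ctrl and 479 to 613 in Csn8AKO libraries, ranges that overlapped. On that scale *Cd36* went from 99.8 to 121 reads per 100 in Ctrl to 137 to 166 in Csn8AKO libraries. *Fabp4* per 100 *Adipoq* reads went from 326 to 388 in Ctrl to 397 to 426. These ratios have no test, and *Adipoq* itself was not called, with a log2 fold change of -0.68 (95% interval -1.26 to -0.10, adjusted p = 0.172).

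Macrophages also make lipase, carry *Cd36* and hold *Fabp4*. The 10 macrophage markers summed to 1055, 1092, 1261 and 1463 CPM in sWAT Ctrl and 3155, 1707, 2948 and 2068 CPM in Csn8AKO libraries, and 7 of 10 rose and 0 fell. Each Csn8AKO library had a higher sum than each Ctrl library. *Lyz2* was the most abundant (232 to 360.3 CPM in Ctrl, 628 to 1215 CPM in Csn8AKO), and none was at 0. Skeletal muscle, which also expresses *Lpl*, *Cd36*, *Vldlr* and *Slc27a1*, was present unevenly: its 10 markers, with *Myh4* on top, summed to 188, 635, 3204 and 387 CPM in Ctrl and 127, 49.0, 415 and 1918 CPM in Csn8AKO libraries, and 0 were called in edgeR (1 at an unadjusted p under 0.05, 0 in DESeq2, 0 in limma voom). The libraries with the highest muscle sum of each group, Ctrl replicate 3 and Csn8AKO replicate 4, were also the highest of their group in *Slc27a1*. The other genes named did not all follow: in Ctrl, *Lpl*, *Cd36* and *Vldlr* were highest in replicate 2 (7699, 1826 and 154 CPM). In Csn8AKO libraries *Lpl* was highest in replicate 4 (5897 CPM), but *Cd36* and *Vldlr* in replicate 1 (1641 and 126 CPM). The 10 B and T cell markers, led by *Ighm*, summed to 408, 131, 72.6 and 90.6 CPM in Ctrl and 214, 837, 179 and 236 CPM in Csn8AKO libraries. The highest of these sums was again that of Csn8AKO replicate 2. Of the 10, 0 were called in edgeR (1 at an unadjusted p under 0.05, 1 in DESeq2, 1 in limma voom). Among the 7 fibroblast markers 1 rose (*Lum*; 3 in limma voom), among the 6 pericyte and smooth muscle markers 2 fell (*Rgs5* and *Cspg4*), and among the 7 brown adipocyte markers tested 4 fell (*Cidea*, *Prdm16*, *Kcnk3* and *Cox8b*). Over all genes 5.31% were called. The part of these cell types in the levels of the uptake genes was not tested.

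**Figure D2:**
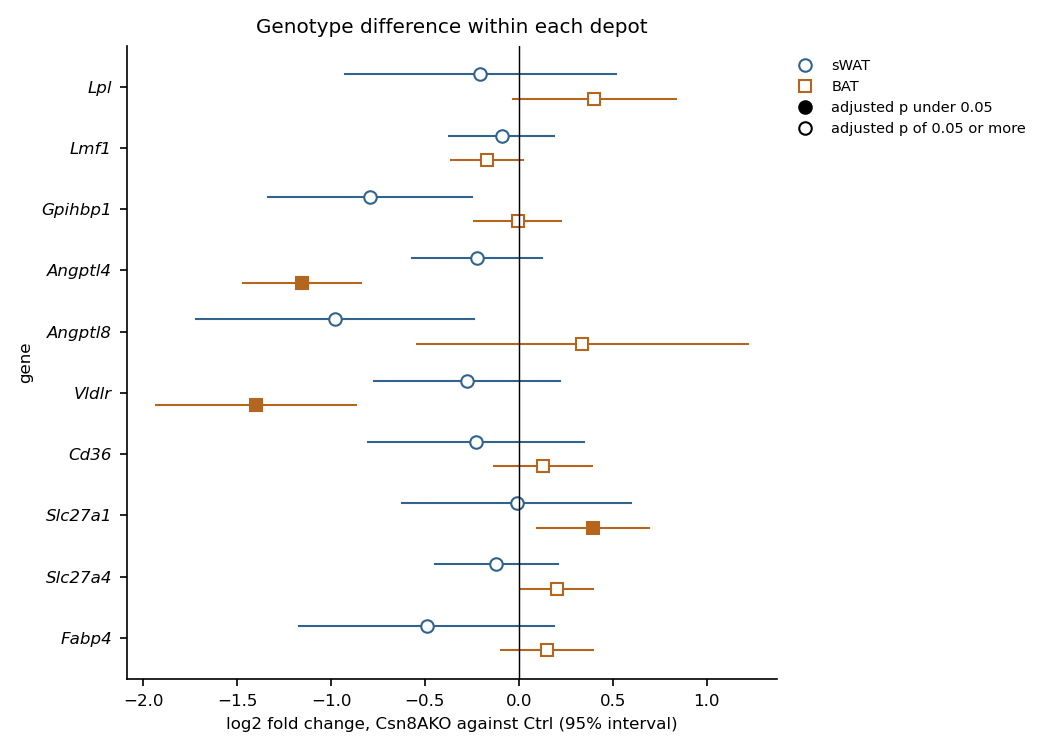
Log2 fold change of Csn8AKO against Ctrl (horizontal axis) with its 95% interval for each of the 10 genes, blue circles for sWAT and brown squares for BAT, filled where the adjusted p was under 0.05. All 10 sWAT symbols are open and left of 0 (the sign turned in 6 of 16 alternatives for *Slc27a1* and in 1 of 16 for *Slc27a4*). Intervals lie wholly under 0 for *Angptl4* and *Vldlr* in BAT and for *Gpihbp1* and *Angptl8* in sWAT. They lie wholly above 0 for *Slc27a1* and *Slc27a4* in BAT. The intervals are not adjusted for the number of genes tested.

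The same question was asked of BAT at 4 weeks, where adjusted p values were again from edgeR. *Angptl4* and *Vldlr* fell and *Slc27a1* rose, 3 of the 10 genes, beside 31.9% of the 22345 genes tested (16.0% higher and 15.8% lower). The median log2 fold change was 0.14 over the 10 genes and 0.0063 over all genes tested. For 2 of the 10 the groups did not overlap, beside 21.1% of all genes.

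*Angptl4* (chromosome 17, 33773750 to 33781830), the inhibitor of the lipase, stood at 229, 160.0, 129.7, 175 and 177 CPM in the Ctrl libraries and 70.7, 86.5, 57.8, 86.1 and 83.9 CPM in the Csn8AKO libraries. The highest Csn8AKO library was well under the lowest Ctrl library. It fell to 0.449 of the Ctrl level (95% interval 0.361 to 0.558), a log2 fold change of -1.16 (SE 0.15, adjusted p = 6.16e-05), and the call held in all 18 alternatives, with adjusted p values up to 0.000313. *Lpl* itself stood at 3008, 3107, 5166, 5371 and 4909 CPM in the Ctrl libraries and 4700.1, 7944, 5461, 4462 and 5555 CPM in the Csn8AKO libraries. All 5 Csn8AKO libraries lay above the Ctrl mean, but 3 of the 5 Ctrl libraries lay inside the Csn8AKO range. For *Lpl* the log2 fold change was 0.40 (95% interval -0.032 to 0.84, adjusted p = 0.149), and 0.25 without Csn8AKO replicate 2, the highest library.

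Within a library, *Angptl4* took 7.62, 5.15, 2.51, 3.26 and 3.61 reads per 100 *Lpl* reads in BAT Ctrl and 1.50, 1.09, 1.06, 1.93 and 1.51 in BAT Csn8AKO. Each Csn8AKO library held fewer inhibitor reads per lipase read than each Ctrl library. In sWAT the same ratio was 5.33, 3.25, 4.92 and 4.94 in Ctrl and 4.20, 7.15, 3.56 and 4.02 in Csn8AKO libraries, where the groups overlapped.

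*Vldlr* (chromosome 19, 27216484 to 27254231), the receptor for triglyceride-rich particles, stood at 312, 257, 272, 286 and 186 CPM in the Ctrl libraries and 116, 159, 70.4, 75.6 and 69.8 CPM in the Csn8AKO libraries. The groups did not overlap, and Csn8AKO replicates 3, 4 and 5 lay close together at the bottom. It fell to 0.379 of the Ctrl level (95% interval 0.262 to 0.548), a log2 fold change of -1.40 (SE 0.24, adjusted p = 0.00120), and the call held in all 18 alternatives. Per 100 *Lpl* reads, *Vldlr* took 10.4, 8.27, 5.27, 5.32 and 3.80 reads in BAT Ctrl and 2.48, 2.00, 1.29, 1.69 and 1.26 in BAT Csn8AKO. These ranges did not overlap. In sWAT the ratio ran from 2.00 to 2.48 in Ctrl and from 1.87 to 2.53 in Csn8AKO libraries.

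*Gpihbp1* stood at 70.2, 74.9, 96.4, 105 and 90.0 CPM in the Ctrl libraries and 77.3, 91.3, 88.8, 81.4 and 89.9 CPM in the Csn8AKO libraries. The Csn8AKO libraries all lay inside the Ctrl range, and the log2 fold change was -0.0070 (95% interval -0.24 to 0.22, adjusted p = 0.970). Its sign turned in 7 of 18 alternatives, with values no further above 0 than 0.11. *Angptl8* stood at 48.3, 47.4, 35.6, 46.1 and 29.4 CPM in the Ctrl libraries and 70.0, 29.0, 96.6, 38.2 and 23.4 CPM in the Csn8AKO libraries. The Csn8AKO libraries spread on both sides of the Ctrl range, and the log2 fold change was 0.34 (95% interval -0.54 to 1.22, adjusted p = 0.559). Its direction turned without Csn8AKO replicate 3, to -0.0031, and it was 0.20 without replicate 1 and 0.53 without replicate 5. The chaperone *Lmf1* ran from 61.2 to 75.9 CPM in Ctrl and from 52.6 to 67.0 CPM in Csn8AKO libraries, with a log2 fold change of -0.17 (95% interval -0.36 to 0.022, adjusted p = 0.170).

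Among the genes of entry, *Slc27a1* stood at 369, 347, 434, 359 and 468 CPM in the Ctrl libraries and 568, 413, 526, 411 and 641 CPM in the Csn8AKO libraries. All 5 Csn8AKO libraries were above the Ctrl mean, and replicates 1, 3 and 5 above every Ctrl library. Replicates 1 and 5 were also the 2 BAT libraries rich in muscle markers, while replicate 3 was not (marker sum 4.73 CPM). *Slc27a1* rose by 0.40 (SE 0.14, adjusted p = 0.0432) on the log2 scale. The call was lost in 8 of 18 alternatives, with adjusted p values up to 0.209: in the fit of all 4 groups, and without Ctrl replicate 1 (0.0892), 2 (0.106), 3 (0.0526) or 4 (0.0918) or Csn8AKO replicate 1 (0.0847), 3 (0.0760) or 5 (0.116). *Slc27a4* ran from 52.2 to 67.5 CPM in Ctrl and from 55.3 to 70.4 CPM in Csn8AKO libraries. Its log2 fold change was 0.20 (95% interval 0.011 to 0.39, adjusted p = 0.0997), and it passed in limma voom (0.0499), under library size alone (0.0403), without Ctrl replicate 5 (0.0362) and without Csn8AKO replicate 1 (0.0333), over a range of 0.0333 to 0.287. *Cd36* stood at 1183, 1147, 1361, 1417 and 1331 CPM in the Ctrl libraries and 1114, 1736, 1375, 1414 and 1303 CPM in the Csn8AKO libraries. The groups overlapped throughout, with a log2 fold change of 0.13 (95% interval -0.13 to 0.39, adjusted p = 0.462) that was 0.038 without Csn8AKO replicate 2 and 0.20 without Csn8AKO replicate 1. *Fabp4* stood at 4524, 4123, 4819, 4498 and 4333 CPM in the Ctrl libraries and 4499, 5829.9, 4965, 4487 and 4629 CPM in the Csn8AKO libraries. Csn8AKO replicate 2 was highest, replicate 3 lay just above the Ctrl range and the other 3 inside it, and the log2 fold change was 0.15 (95% interval -0.093 to 0.40, adjusted p = 0.345), or 0.083 without replicate 2.

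Marker lists of cell types differed in BAT in part, beside 31.9% of all genes called. The 10 macrophage markers summed to 147, 129, 100.2, 142 and 117 CPM in Ctrl and 441, 373, 473, 419.5 and 536 CPM in Csn8AKO libraries, and all 10 rose, *Lyz2* the most abundant. The 7 fibroblast markers, led by *Col3a1*, summed to 1066 to 1849.6 CPM in Ctrl and 2822 to 4767 CPM in Csn8AKO libraries, and all 7 rose. In both lists every Csn8AKO sum was above every Ctrl sum. The 11 adipocyte markers summed to 12609, 13084, 16569, 16977 and 16867 CPM in Ctrl and 9961, 13655, 10936, 11068 and 12483 CPM in Csn8AKO libraries: *Lipe*, *Pnpla2* and *Pck1* fell, *Retn* and *Adrb3* rose, and the median log2 fold change was -0.22. *Lpl* took 23.7 to 31.6 reads per 100 of these marker reads in Ctrl and 40.3 to 58.2 in Csn8AKO libraries. Per 100 *Adipoq* reads the ranges overlapped for *Lpl* (443 to 805 in Ctrl, 672 to 1109.9 in Csn8AKO), *Cd36* (174 to 212, 159 to 243) and *Fabp4* (624 to 751, 586 to 815). The 11 endothelial markers summed to 1152 to 1565 and 1240.1 to 1606 CPM, 2 of the 11 rose (*Pecam1* and *Emcn*), and *Gpihbp1* took 5.92 to 6.71 and 5.07 to 7.36 reads per 100 of their reads. None of the adipocyte or endothelial markers was at 0. Of the 10 brown adipocyte markers *Elovl3* rose and *Cox7a1* fell, of the 6 pericyte and smooth muscle markers *Notch3*, *Myh11* and *Acta2* rose and *Cspg4* fell, and of the 10 B and T cell markers *Cd2* and *Cd3e* rose and *Cd79a* fell. The shares called among endothelial, brown adipocyte and B and T cell markers were no higher than over all genes. The 10 muscle markers summed to 4.97 to 16.6 CPM in Ctrl, where *Pvalb* was at 0, and 146, 10.4, 4.73, 5.01 and 254 CPM in Csn8AKO libraries. Muscle reads were high in replicates 1 and 5 alone, the 2 libraries highest in *Slc27a1*, and 2 of the 5 markers tested rose in edgeR (*Tnnt3* and *Acta1*), while DESeq2 called 3 and limma voom 0. Among the Csn8AKO libraries, *Lpl*, *Cd36* and *Vldlr* were highest in replicate 2, where the muscle sum was 10.4 CPM. The part of these cell types in the changes of *Angptl4*, *Vldlr* and *Slc27a1* was not tested.

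**Figure D3:**
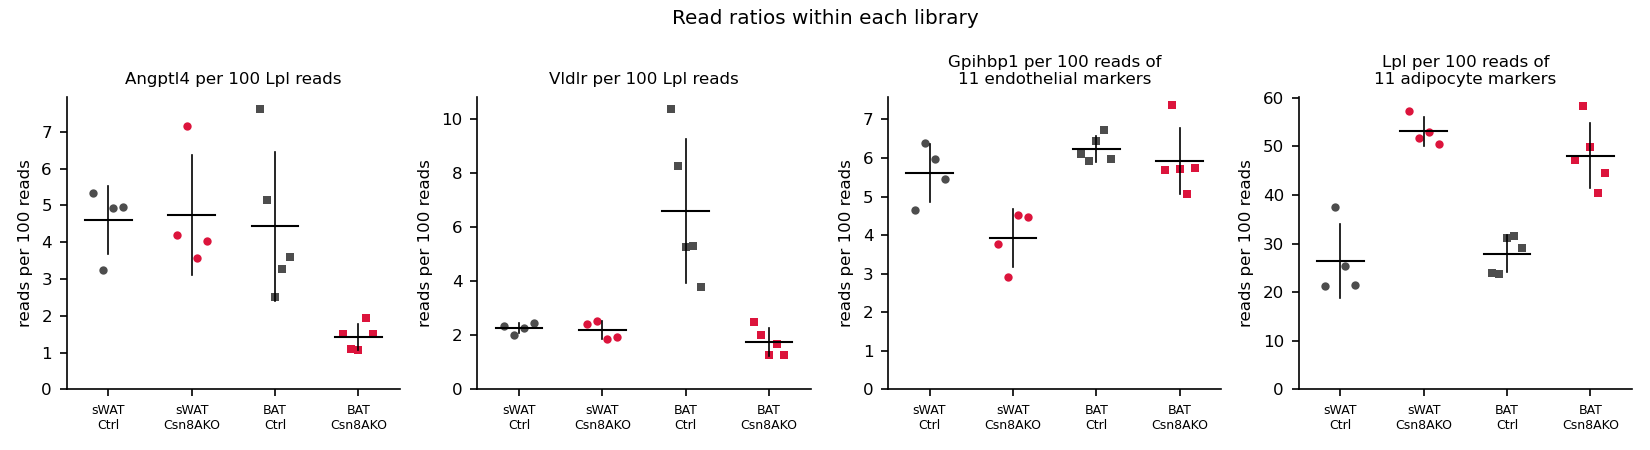
Reads of 1 gene per 100 reads of another gene or marker list (linear axis from 0) in each of the 18 libraries, with a bar at the mean and a line of 1 SD either side, grey for Ctrl, red for Csn8AKO, circles for sWAT and squares for BAT. *Angptl4* and *Vldlr* per 100 *Lpl* reads are lower in all 5 BAT Csn8AKO libraries, and *Gpihbp1* per 100 endothelial marker reads is lower in all 4 sWAT Csn8AKO libraries.

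Whether the genotype difference itself differed between BAT at 4 weeks and sWAT at 12 weeks was tested as an interaction in a fit of all 18 libraries. Of the 10 genes 1 was called, *Angptl4*, beside 2.36% of the 22509 genes tested. The genotype difference of *Angptl4* was lower in BAT than in sWAT, with an interaction of -0.94 on the log2 scale (SE 0.23, adjusted p = 0.0296). It missed the threshold in 7 of 25 alternatives: under library size alone (adjusted p = 0.300), with a replicate block (0.0663) and without sWAT Ctrl replicate 1 (0.0543), sWAT Ctrl replicate 4 (0.0558), sWAT Csn8AKO replicate 1 (0.0618), BAT Ctrl replicate 1 (0.0520) or BAT Csn8AKO replicate 3 (0.0535), in a range of 0.00603 to 0.300. *Vldlr* had an interaction of -1.14 (SE 0.36, adjusted p = 0.117), which passed in DESeq2 (0.0485), in limma voom (0.0095), without sWAT Csn8AKO replicate 2 (0.0460) and without BAT Csn8AKO replicate 2 (0.0211), in a range of 0.00950 to 0.235. *Gpihbp1* had an interaction of 0.78 (SE 0.27, adjusted p = 0.152), which passed under library size alone (0.0206) and without sWAT Csn8AKO replicate 4 (0.0324), in a range of 0.0206 to 0.279. For the other 7 genes the adjusted p ran from 0.269 to 0.840. The median over the 10 was 0.37, beside -0.0041 over all genes tested. In edgeR, marker lists held called interactions too, all positive: 2 of 11 adipocyte, 3 of 10 brown adipocyte and 2 of 10 macrophage markers. Also positive were 1 of 7 fibroblast and 1 of 6 pericyte and smooth muscle markers. It called 0 of 11 endothelial, 10 muscle and 10 B and T cell markers. Of the 10 muscle markers, DESeq2 called 7 and limma voom 0, with 8 at an unadjusted p under 0.05 in edgeR. The median interaction of the muscle markers was 6.34. Among adipocyte markers DESeq2 called 5 and limma voom 6. The part of these cell types in the interaction of *Angptl4* was not tested. Over all genes the 532 called interactions became 1092 in DESeq2 and 297 with a replicate block.

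The lipase also depends on apolipoproteins that activate or hinder it, on convertases that cut it or its inhibitors, and on heparan sulfate at the cell surface. Of 17 such genes 14 were tested within each depot. In sWAT 1 rose and 0 fell (DESeq2 called 2), beside 5.31% of all genes called, with a median log2 fold change of -0.084: *Sdc1*, a heparan sulfate proteoglycan that binds the lipase, went from 9.14, 13.2, 9.57 and 11.3 CPM in Ctrl to 35.2, 34.5, 41.6 and 33.1 CPM in Csn8AKO libraries. The groups were far apart, and the log2 fold change was 1.75 (SE 0.15, adjusted p = 0.000530). In BAT 4 of the 14 rose and 3 fell, beside 31.9% of all genes called, with a median of 0.017. *Sdc1* stood at 3.51, 3.79, 2.19, 2.00 and 2.79 CPM in the Ctrl libraries and 9.00, 3.66, 10.1, 8.75 and 14.0 CPM in the Csn8AKO libraries, and rose by 1.70 (SE 0.30, adjusted p = 0.00106) on the log2 scale. All Csn8AKO libraries but replicate 2 lay above the Ctrl range. *Lipg*, the endothelial lipase, rose in BAT by 1.12 (SE 0.21, adjusted p = 0.00137) without overlap, and *Apoc3*, an apolipoprotein that hinders the lipase, by 1.55 (SE 0.25, adjusted p = 0.000357), though it reached no more than 3.53 CPM in any library. *Apoe*, an apolipoprotein of remnant particles named after its values were seen, rose by 0.71 (SE 0.15, adjusted p = 0.00307). *Apoc1*, another apolipoprotein, had a log2 fold change of -1.16 (SE 0.20, adjusted p = 0.000902), the convertase *Pcsk6* of -0.44 (SE 0.15, adjusted p = 0.0388), and *Sel1l*, which with *Lmf1* brings the lipase out of the endoplasmic reticulum, of -0.20 (SE 0.065, adjusted p = 0.0312).

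*Vldlr* belongs to a family of lipoprotein receptors. In BAT, where *Vldlr* fell, the receptor *Lrp1* rose by 0.51 (SE 0.13, adjusted p = 0.00682) on the log2 scale and the sorting receptor *Sorl1* by 0.99 (SE 0.27, adjusted p = 0.0175). Both had overlapping groups, with all 5 Csn8AKO libraries above the Ctrl mean. In sWAT neither was called: the log2 difference was -0.011 (95% interval -0.59 to 0.57, adjusted p = 0.987) for *Lrp1* and 0.21 (95% interval -1.93 to 2.36, adjusted p = 0.927) for *Sorl1*. *Sorl1* stood there at 112, 119, 32.7 and 35.6 CPM in the Ctrl libraries and 39.7, 239, 23.4 and 35.0 CPM in the Csn8AKO libraries, and Csn8AKO replicate 2 was the 1 Csn8AKO library above the Ctrl mean.

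Beyond *Fabp4*, *Cd36* and the 2 transporters, 27 genes of fatty acid binding, transport and activation were listed. In sWAT 18 were tested and 0 called in edgeR, beside 5.31% of all genes (8 at an unadjusted p under 0.05, 1 in DESeq2 and 2 in limma voom), with a median of -0.31. In BAT 20 were tested, 7 rose and 1 fell (10 were called in DESeq2 and 13 in limma voom), beside 31.9% of all genes called, with a median of 0.28. *Fabp5*, a relative of *Fabp4* and a carrier that macrophages and endothelium also make, stood at 69.0, 62.5, 67.4, 42.3 and 52.6 CPM in the Ctrl libraries and 292, 313, 267, 243 and 189.7 CPM in the Csn8AKO libraries. Each Csn8AKO library was above all Ctrl libraries, with a log2 fold change of 2.17 (SE 0.15, adjusted p = 6.75e-07). Per 100 *Fabp4* reads, *Fabp5* took 1.52, 1.52, 1.40, 0.940 and 1.22 reads in BAT Ctrl and 6.50, 5.37, 5.38, 5.42 and 4.10 in BAT Csn8AKO. The ranges lay far apart. In sWAT *Fabp5* stood at 29.8, 111, 39.6 and 45.3 CPM in the Ctrl libraries and 75.7, 50.9, 108 and 90.8 CPM in the Csn8AKO libraries, with a log2 fold change of 0.54 (95% interval -0.37 to 1.45, adjusted p = 0.514). The overlap came from Ctrl replicate 2, since the other 3 Ctrl libraries lay under all Csn8AKO libraries. Per 100 *Fabp4* reads the sWAT ratio was 0.847, 1.90, 0.755 and 0.824 in Ctrl and 1.64, 2.82, 2.88 and 2.21 in Csn8AKO libraries, again with Ctrl replicate 2 apart. The interaction of *Fabp5* was 1.63 (SE 0.43, adjusted p = 0.0599). *Got2*, a mitochondrial aminotransferase also known as a fatty acid binding protein of the plasma membrane, rose in BAT by 0.93 (SE 0.13, adjusted p = 0.000151), and the acyl-CoA synthetase *Acsl5* by 1.13 (SE 0.20, adjusted p = 0.000840), both without overlap. The other 4 that rose, named after their values were seen, were *Acsbg1*, *Fabp12*, *Cav1* and *Slc27a3*. All but *Cav1* were low in BAT. Mean levels in Ctrl and Csn8AKO were 0.199 and 0.528 CPM for *Fabp12*, 1.34 and 2.47 CPM for *Acsbg1*, and 2.72 and 3.87 CPM for *Slc27a3*. *Slc27a2*, a transport protein of the *Slc27a1* family, had a log2 fold change of -1.24 (SE 0.29, adjusted p = 0.00823), also without overlap. The caveolar protein *Cav1*, the 1 called interaction among 22 of these genes beside 2.36% of all genes, was named after its values were seen and had an interaction of 1.07 (SE 0.27, adjusted p = 0.0370), which missed the threshold in 11 of 25 alternatives run after the data were seen (adjusted p up to 0.171).

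Of 16 known regulators of these genes, 0 rose and 2 fell in sWAT, beside 5.31% of all genes called (median log2 fold change -0.30; 6 at an unadjusted p under 0.05, 5 in DESeq2 and 5 in limma voom). In BAT 0 rose and 3 fell, beside 31.9% of all genes (median -0.12). *Vegfb*, a growth factor known for its ties to endothelial fatty acid transport, stood in sWAT at 67.6, 92.5, 79.2 and 73.9 CPM in the Ctrl libraries and 24.5, 15.7, 31.2 and 38.1 CPM in the Csn8AKO libraries. The groups did not overlap, and the log2 fold change was -1.51 (SE 0.23, adjusted p = 0.00690). In BAT *Vegfb* stood at 150.3, 117, 122, 111 and 113 CPM in the Ctrl libraries and 70.5, 77.6, 84.4, 89.7 and 96.0 CPM in the Csn8AKO libraries. The groups were again apart, with a log2 fold change of -0.53 (SE 0.10, adjusted p = 0.00140), and the interaction was 0.97 (SE 0.26, adjusted p = 0.0492). That interaction missed the threshold in 14 of 25 alternatives run after the data were seen, 12 of them with 1 library left out, with adjusted p from 0.00285 to 0.137. *Klf15*, a transcription factor of adipocyte lipid metabolism, had a log2 fold change of -1.26 (SE 0.20, adjusted p = 0.00786) in sWAT and -1.88 (SE 0.35, adjusted p = 0.00301) in BAT. *Cebpa*, which with *Pparg* drives *Lpl* and *Fabp4* in adipocytes, had a log2 fold change of -0.95 (SE 0.12, adjusted p = 6.59e-05) in BAT, and was not called in sWAT (95% interval -1.67 to -0.33, adjusted p = 0.0915). *Pparg* itself, the classic driver of *Angptl4*, *Lpl* and *Fabp4*, was picked after its values were seen and was not called. Its log2 fold change was -0.25 (95% interval -0.93 to 0.42, adjusted p = 0.696) in sWAT and 0.21 (95% interval -0.0036 to 0.43, adjusted p = 0.126) in BAT.

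Likeness of pattern was measured as the root mean square difference of centred log2 CPM over all 18 libraries, among 11558 genes. Nearest to *Lpl* was *Cd36* (0.23), then *Tom1* (0.27) and *Sqstm1* (0.28), against a median of 0.60. Nearest to *Gpihbp1* were *Sgta* (0.21), *Mfn2* (0.22) and *Ptprm* (0.23), against a median of 0.81. Nearest to *Angptl4* were *Slc35b4* (0.29), *Btbd8* (0.30) and *Prelp* (0.30), against a median of 0.81. The measure takes depot and genotype differences together, so near genes need not share a genotype difference. In BAT, edgeR called *Sqstm1* higher (log2 fold change 0.48, adjusted p = 0.00475) and *Mfn2* lower (-0.34, adjusted p = 0.0132). *Lpl*, *Cd36*, *Tom1*, *Gpihbp1*, *Sgta* and *Ptprm* were not called there, while *Slc35b4*, *Btbd8* and *Prelp* fell, as *Angptl4* did.

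The 3 remaining marker lists had few reads or no call. Epithelial markers summed to at most 10.3 CPM in any library, with *Krt5* at 0 in sWAT Csn8AKO, and the 1 marker tested in sWAT (*Cdh1*) was not called in edgeR, while none could be tested in BAT. Neutrophil markers summed to 1.66 to 2.85 CPM in sWAT Ctrl and 3.55 to 7.58 CPM in sWAT Csn8AKO, and to 0.298 to 0.724 CPM in BAT Ctrl and 0.913 to 1.34 CPM in BAT Csn8AKO. Each Csn8AKO sum was above each Ctrl sum in both depots, *Ly6g* was at 0 in both sWAT groups, and 0 were called in either depot. Erythroid markers summed to between 232 and 1382 CPM, and 0 of 5 were called in either depot. At an unadjusted p under 0.05 there were 2 neutrophil markers in sWAT, 1 in BAT and none of the other lists, and DESeq2 and limma voom each called 1 neutrophil marker in sWAT and none else in these lists within either depot.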

How the data were processed

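Ribosomal RNA-depleted libraries, 1 mouse each, were aligned by the authors to GRCm38 with STAR and counted on genes with featureCounts. The deposited files give a count per gene, and the authors added CPM, FPKM and TPM per gene. Of these deposited values, only the counts entered the levels and fits here, and gene positions and exon lengths came from the same files. Whether reads were counted by strand is not stated. The 10 genes and the gene lists were chosen with earlier results of these data known. Counts were fitted with edgeR 4.0.16 in R 4.3.3 (TMM factors, filterByExpr with a count minimum of 10 and a total of 15, robust quasi-likelihood), each depot apart for genotype, the 9 Ctrl libraries for depot, and all 18 for the interaction. P values were adjusted by Benjamini-Hochberg over all genes tested, and a gene was called at an adjusted p under 0.05. Intervals are at 95%.

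Named genes were the 10 members, *Cops8*, up to 3 called genes of smallest adjusted p per pathway list, depot and direction, the 3 protein-coding genes nearest in pattern to *Lpl*, *Gpihbp1* and *Angptl4* among genes averaging 1 or more in log2 CPM, and the most abundant gene of each of 11 marker lists. Results of some genes of the receptor list, and that list's counts, are not reported here. Alternatives were DESeq2 1.42.0 size factors and test, limma 3.58.1 voom with quality weights, scaling by library size only, all genes kept whatever their counts, no ribosomal RNA genes, a replicate block, all 4 groups in 1 fit, and leaving out each library. Gene positions and exon lengths were those of the deposited files. Gene types and coding transcript lengths were taken from GENCODE, and tables were made with Python 3.11.15 and pandas 2.3.3. The fits were tested on simulated data. Read totals limit precision, and intervals cover the spread between mice as sampled.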

Additional observations from a re-analysis of the deposited data

Results flagged for a closer look

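Among 128 groups of values compared within a group, 11 had 1 library standing apart from the others, where chance alone gives about 1 group in 20, and the groups share libraries. *Angptl8* in sWAT Ctrl was highest in replicate 2, at 13.0 CPM. In the same library *Fabp5* was highest relative to *Fabp4*, at 1.90 reads per 100. *Slc27a4* in BAT Csn8AKO was lowest in replicate 1, at 55.3 CPM. The endothelial markers in sWAT Ctrl were lowest in replicate 1, at a sum of 716 CPM.

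The muscle markers stood apart in sWAT Ctrl replicate 3, at 3204 CPM, and in BAT Ctrl replicate 4, at 16.6 CPM. B and T cell markers were highest in sWAT Csn8AKO replicate 2, at 837 CPM. The pericyte and smooth muscle markers in BAT Csn8AKO were lowest in replicate 2, at 732 CPM, the library in which ribosomal RNA genes took the highest share of that group, 15.1%. Epithelial markers were highest in sWAT Ctrl replicate 4, at 10.3 CPM, and in BAT Ctrl replicate 3, at 1.20 CPM.

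The difference between the genotype effects of the depots passed the threshold for *Angptl4*, for *Vegfb*, and for the most abundant macrophage and pericyte markers, *Lyz2* and *Rgs5*. On the log2 scale the interaction was -0.94 for *Angptl4* (adjusted p = 0.0296), 0.97 for *Vegfb* (adjusted p = 0.0492), 1.33 for *Lyz2* (adjusted p = 0.0196) and 0.80 for *Rgs5* (adjusted p = 0.0109). No call held throughout: that of *Angptl4* was lost in 7 of 25 alternatives, that of *Vegfb* in 14, that of *Lyz2* in 2 and that of *Rgs5* in 1. *Cav1*, named once its values were seen, passed too (1.07, adjusted p = 0.0370), and its call was lost in 11. Depot and age cannot be told apart in any of them.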

How the results depend on the processing

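Over 740 alternatives of 40 log2 values of the 10 genes, 687 kept direction and side of the threshold, 22 passed it anew, 15 lost it and 16 turned direction. The count called in sWAT went from 0 to 1 with DESeq2, with limma voom and with all 4 groups in 1 fit (*Gpihbp1* each time), and from 0 to 1 as single libraries were left out. In BAT it went from 3 to 5 with library size alone, which added *Fabp4* and *Slc27a4*, and from 2 to 4 over the left-out libraries. Called interactions went from 1 to 2 with DESeq2 and with limma voom (*Angptl4* and *Vldlr*), and from 0 to 2 over the left-out libraries; library size alone gave 1, *Gpihbp1* in place of *Angptl4*. The depot count of 7 was 9 with limma voom and 10 with library size alone, and 7 to 9 over the left-out libraries. *Cops8* in BAT was -0.16 on the log2 scale with library size alone, and -0.34 to -0.24 over the left-out libraries. The cause was not tested.

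Library size alone moved the median of all genes by 0.13 in BAT, 0.22 in the interaction and -0.19 between depots. It gave *Gpihbp1* in BAT 0.11 and the interaction of *Lmf1* 0.13, which are -0.019 and -0.086 relative to that shift. *Fabp4* and *Slc27a4* in BAT, which it brought under the threshold, were 0.14 and 0.20 relative to the shift. Over all genes it called 4183 higher and 2087 lower in BAT, against 3585 and 3536 with TMM factors. Between depots the counts were 3781 and 6719, against 5748 and 6039. For the interaction they were 494 and 39, against 362 and 170. *Slc27a1* in sWAT was 0.11 and *Slc27a4* 0.0024 with limma voom, and *Slc27a1* was 0.0047 without ribosomal RNA genes. With single libraries left out, *Slc27a1* in sWAT ran from -0.26 to 0.16, *Gpihbp1* in BAT from -0.080 to 0.074, and *Angptl8* in BAT from -0.0031 to 0.53.

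Replicate numbers were tried as a replicate block. Libraries of the same number did not deviate together, with correlations across genes of -0.39 to 0.22 in sWAT and -0.098 to 0.10 in BAT, so the numbers were read as names. With the replicate block 0 of the 10 genes were called in sWAT, 3 in BAT and 0 in the interaction (*Angptl4* at an adjusted p of 0.0663), and *Gpihbp1* in BAT was 0.0078. Over all genes the block gave 299 calls in sWAT, against 1000 without it, and 6776 in BAT, against 7121. Single left-out libraries gave 326 to 1477 in sWAT and 5723 to 8146 in BAT.

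Each group held 4 or 5 mice, and a p that missed the threshold, as for *Lpl* in BAT, does not show that levels did not differ. For the interactions of *Vegfb*, *Cav1*, *Lyz2* and *Rgs5* the alternatives were chosen after seeing the data; 14, 11, 2 and 1 of 25 lost the call, and none turned direction.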
